A study of Mus musculus with 2 samples.

Results

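The interleukin-1 (IL-1) family was followed through the temporomandibular joint (TMJ) of mice as 10 genes, namely the ligands *Il1a*, *Il1b*, *Il18* and *Il33*, the antagonist *Il1rn*, the receptor chains *Il1r1*, *Il1rap* and *Il1rl1*, the decoy receptor *Il1r2* and the binding protein *Il18bp*. They were taken by gene symbol and not by a cutoff on their values, although earlier results of these data were known. All 10 were found among the 32285 genes counted in both libraries. The data were 2 single-cell RNA sequencing libraries from wild-type C57BL/6 mice (C57BL/6J in the methods), 1 of joints injected with PBS (phosphate-buffered saline, the vehicle) and 1 of joints injected with CFA (complete Freund's adjuvant, an oil emulsion with killed mycobacteria that causes chronic inflammation). Per the methods, the mice were females that were 8 weeks old when both joints received a volume of 10 µL, CFA being at 5 mg/mL. Joints were taken 3 weeks later and the cells of 3 mice were pooled, while the labels give an age of 8 to 10 weeks. Bone, disc, ligament and muscle of the joint went into a single digest, and cells with the immune surface protein CD45 were removed with magnetic beads, so each level and share of an immune class below belongs to a depleted suspension and not to the joint. With 1 library in each condition, a difference between them could not be set against the spread of replicates, and p-values are not given.

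Members of the IL-1 family are cytokines that start and carry sterile and infectious inflammation. IL-1α and IL-1β, encoded by *Il1a* and *Il1b*, both bind the receptor IL-1R1, which signals only after it pairs with the accessory chain encoded by *Il1rap*. The product of *Il1rn* occupies the same receptor without signalling, and the product of *Il1r2* binds the ligands but has no signalling domain. IL-18, which drives interferon-γ production, is held in check by the secreted binding protein of *Il18bp*. IL-33, stored in the nuclei of stromal and barrier cells and released on damage, acts through ST2, the product of *Il1rl1*, which uses the same accessory chain. IL-1β and IL-18 are made as precursors that caspase-1 cleaves within inflammasomes, so their RNA does not show how much active protein was made.

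Cells with at least 500 genes, at most 10% mitochondrial and at most 1% hemoglobin UMIs (unique molecular identifiers, each a counted RNA molecule) were kept, which left 2667 of 7671 PBS barcodes and 4014 of 5709 CFA barcodes. They held 27201994 and 44432717 UMIs, with medians of 7022 and 6509.5 UMIs a cell, and 2 barcode sequences occurred in both libraries. Clusters were named from marker genes and are called, for example, neutrophil-like. All 7 neutrophil markers were detected in the main neutrophil-like cluster, 7 of 8 macrophage markers in the macrophage-like cluster and all 8 endothelial markers in 5 of 6 endothelial-like clusters, while the small mature neutrophil-like cluster showed 3 of 7. The cells called mast cell or basophil-like carried *Mcpt8*, *Cpa3* and *Fcer1a*, while the mast cell proteases *Mcpt4*, *Cma1* and *Tpsb2* were at 0 in both libraries, so their leading genes are those of basophils. Levels are given as CPM, the UMIs of a gene in each 1000000 UMIs of the class. Intervals in parentheses are exact 95% Poisson intervals for CPM, exact Clopper-Pearson intervals for shares and exact conditional binomial intervals for ratios, and all cover counting error only, not differences between mice or preparations.

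Over all cells kept, 8 of the 10 genes had a higher CPM in the CFA than in the PBS library, with intervals that did not overlap, and the ratios of *Il1rn*, *Il1a* and *Il1b* were the highest of the 10, followed by those of *Il18bp* and *Il1r2*. *Il1a* had 1.58 CPM (1.14 to 2.13) in the PBS and 65.8 CPM (63.5 to 68.3) in the CFA library. *Il1b* had 42.8 CPM (40.3 to 45.3) and 720.5 CPM (712.6 to 728.4), and *Il1rn* had 3.16 CPM (2.53 to 3.90) and 148.9 CPM (145.4 to 152.6). The decoy receptor *Il1r2* had 18.6 and 90.2 CPM, *Il18bp* had 5.99 and 32.6 CPM, and *Il18* had 6.73 and 14.9 CPM. The signalling chains moved less, with 50.7 and 70.5 CPM for *Il1r1* and 40.3 and 55.3 CPM for *Il1rap*. *Il33* was lower in the CFA library, at 31.98 CPM (29.9 to 34.2) against 24.9 CPM (23.5 to 26.4), and *Il1rl1* had 3.82 and 3.69 CPM, with overlapping intervals. These totals mix the level within each cell type with the number of cells of that type. The share of neutrophil-like cells was 2.62% in PBS against 8.64% in CFA, that of macrophage-like cells 0.750% against 7.75%, and that of fibroblast-like cells 17.5% against 9.02%. Osteoclast-like macrophages, which carry *Acp5*, *Dcstamp*, *Mmp12* and *Spp1*, were 277 cells of the CFA library and 0 of 2667 cells of the PBS library, which allows a share of up to 0.112%. The levels within classes are therefore taken gene by gene below.

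**Figure D1:**
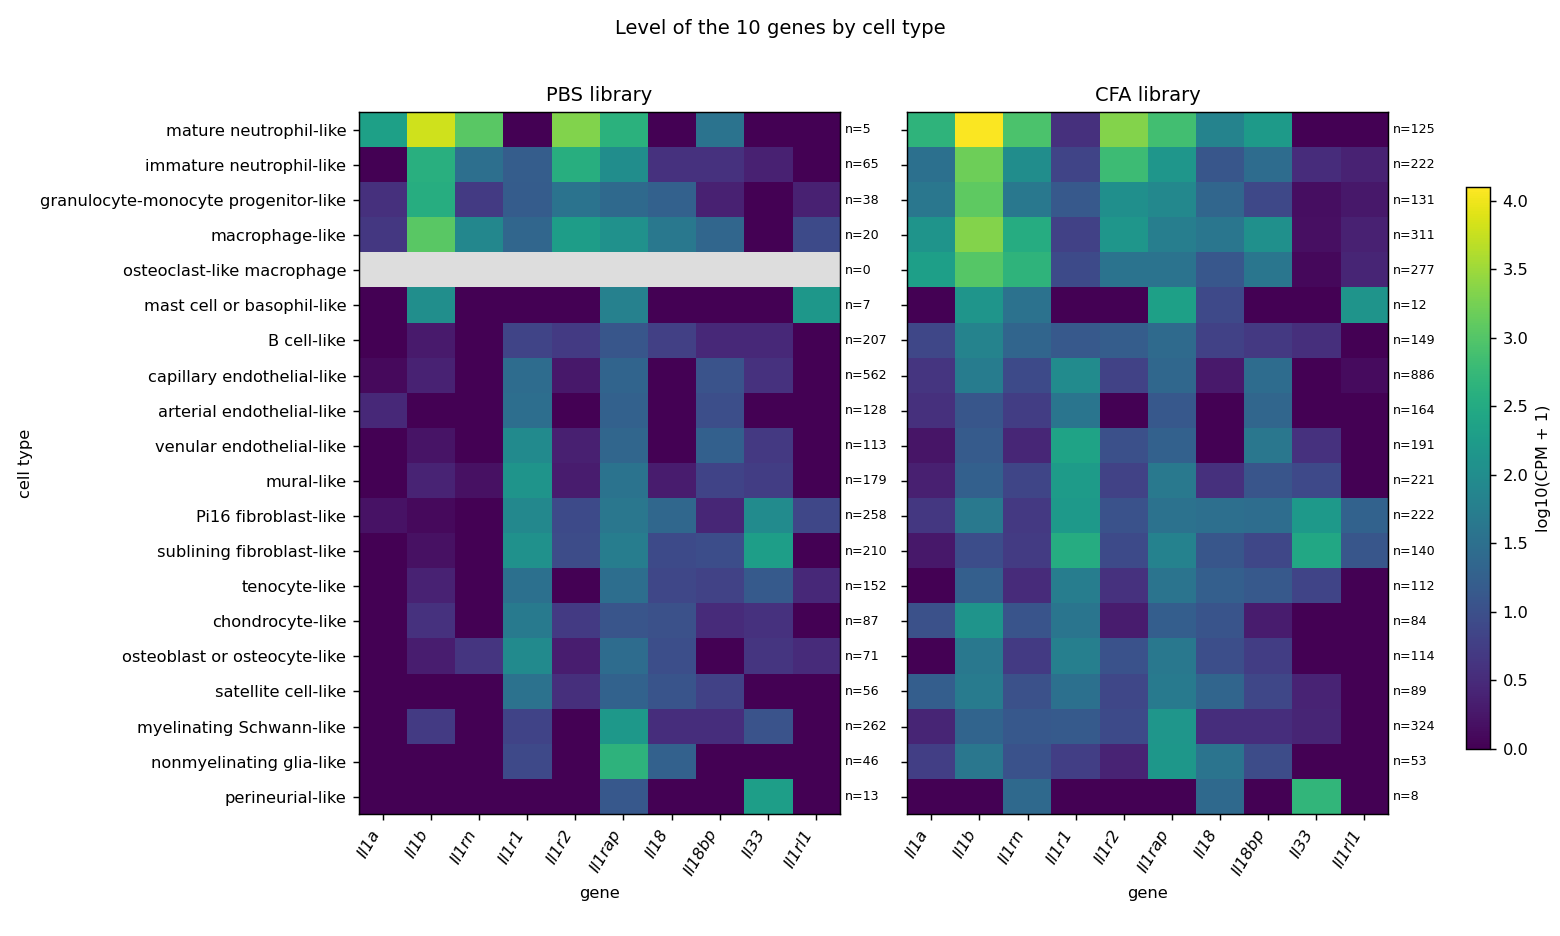
Level of each of the 10 genes in each cell type of the PBS (left) and CFA (right) library, as log10(CPM + 1), with the number of cells beside each row and grey where a library had no cell of the type. *Il1b*, *Il1rn* and *Il1r2* were highest in mature neutrophil-like cells, *Il1r1* was bright in fibroblast-like, venular and mural rows, *Il33* in fibroblast- and perineurial-like rows, and *Il1rap* in neutrophil- and glia-like rows.

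*Il1b*, the ligand read most often, was a gene of the myeloid classes in both conditions. In mature neutrophil-like cells it had 6366 CPM (5475 to 7361) over 5 PBS cells and 11830 CPM (11480 to 12180) over 125 CFA cells, and 97.6% of the latter held at least 1 UMI. In immature neutrophil-like cells, which carry the granule genes *Ngp*, *Camp* and *Ltf*, it had 384 CPM (340.4 to 432.5) over 65 PBS cells and 1568 CPM (1521 to 1617) over 222 CFA cells. The intervals did not overlap, and the CFA level was 4.08 times the PBS level (3.61 to 4.62). Both kinds together went from 613 to 2842 CPM, a ratio of 4.63 (4.22 to 5.10), but the mix changed as well, since mature cells were 5 of 70 neutrophil-like cells in the PBS and 125 of 347 in the CFA library. Without the 3 cells that held the most *Il1b* in each library the ratio was 6.78. Without the hemoglobin limit it was 5.13 for all neutrophil-like cells and 14.0 for immature ones.

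Macrophage-like cells had 1119 CPM of *Il1b* (998.2 to 1251) over 20 PBS cells and 2214 CPM (2170 to 2259) over 311 CFA cells. The ratio of 1.98 (1.77 to 2.22) rested on few PBS cells, of which a single cell held 41.0% of the UMIs. It ranged from 0.743, with clustering on log-normalized counts without integration, to 3.95, without the 3 cells with the most UMIs, so its direction was not settled by these libraries. Osteoclast-like macrophages of the CFA library had 1035 CPM (1014 to 1056), with a UMI in 85.6% of cells. Granulocyte-monocyte progenitor-like cells, which carry *Elane*, *Mpo* and *Prtn3* together with the monocyte genes *Ly6c2*, *F13a1* and *Ccr2*, had 357 CPM (315.1 to 402.5) over 38 PBS cells and 1213 CPM (1170 to 1258) over 131 CFA cells. In CFA 46.6% of them held *Elane*, 36.6% *Mpo* and 76.3% *Prtn3*, against 97.7% with *Ly6c2* and 92.4% each with *F13a1* and *Ccr2*. The class is therefore not one of progenitors alone, and no class of monocyte-like cells was named apart. Of CFA macrophage-like cells 52.1% held *Ly6c2*, 62.1% *F13a1* and 42.1% *Ccr2*, so monocytes were not told apart from macrophages in that class either. Of the 1163 PBS UMIs of *Il1b*, neutrophil-like cells held 39.4%, macrophage-like cells 26.7% and progenitor-like cells 22.8%. Of the 32013 CFA UMIs, macrophage-like cells held 30.1%, osteoclast-like macrophages 29.9%, neutrophil-like cells 26.8% and progenitor-like cells 9.11%. In the CFA library 3 classes thus held similar parts of the *Il1b* RNA, although the level within neutrophil-like cells was the highest of them.

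**Figure D2:**
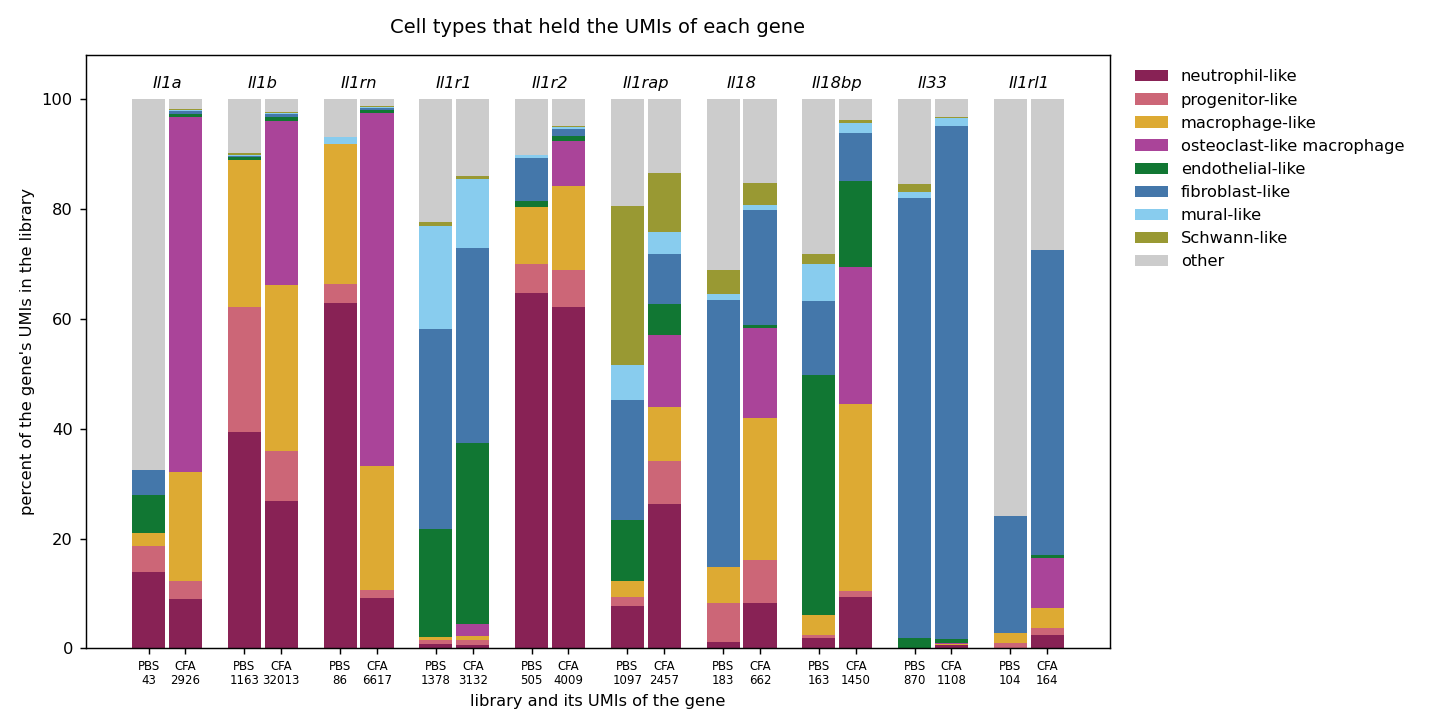
Percent of the UMIs of each gene held by each cell class, as stacked bars for PBS and CFA, with the number of UMIs under each bar. The myeloid classes held most of *Il1a*, *Il1b*, *Il1rn* and *Il1r2* in the CFA library, and fibroblast-like cells held 93.3% of *Il33*.

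*Il1a*, which also acts from the cell surface and from the nucleus, was concentrated in fewer cells. It was near 0 in most PBS classes, with 0 UMIs in 65 immature neutrophil-like cells, 1 UMI in 20 macrophage-like cells (3.61 CPM) and 6 UMIs in 5 mature neutrophil-like cells (209.9 CPM, 77.0 to 456.8). In the PBS library 27 of its 43 UMIs came from 3 cells of a cluster that could not be named, led by *Siglech* and *Gzma*. In the CFA library it had 471.7 CPM (404.7 to 546.5) in mature neutrophil-like cells, 204 CPM (195.0 to 213.5) in osteoclast-like macrophages and 133 CPM (122.5 to 144.4) in macrophage-like cells. Its level in CFA immature neutrophil-like cells, 32.1 CPM (25.6 to 39.7), was at least 7.69-fold higher than the floor of 3 counts in the PBS class. Osteoclast-like macrophages held 64.6% (62.8 to 66.3) of the 2926 CFA UMIs, macrophage-like cells 19.8% and neutrophil-like cells 8.95%. The source of *Il1a* was thus not that of *Il1b* in proportion. Of the osteoclast-like macrophages 78.3% held a UMI of *Il1a*, against 32.8% of mature neutrophil-like and 32.8% of macrophage-like cells, and 0.967% of CFA endothelial-like cells, at medians of 31189, 2662, 12443 and 3958 UMIs a cell. After each cell was thinned to 1000 UMIs the shares were 16.2% in osteoclast-like macrophages, 25.6% in mature neutrophil-like, 9.12% in macrophage-like and 0.170% in endothelial-like cells, so the order of the first 2 turned with depth.

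*Il1rn*, which encodes the IL-1 receptor antagonist, shared its main source with *Il1a* in CFA but not in PBS, where the *Siglech* and *Gzma* cluster that held 62.8% of *Il1a* had 0 UMIs of it. Mature neutrophil-like cells had 1119 CPM (765.6 to 1580) in the PBS and 882 CPM (789.6 to 982.4) in the CFA library, with overlapping intervals. Immature neutrophil-like cells had 30.6 CPM (19.2 to 46.4) and 103 CPM (91.3 to 116.1), a ratio of 3.37 (2.18 to 5.46). Macrophage-like cells had 79.4 CPM (49.8 to 120.3) and 343 CPM (325.6 to 360.6), a ratio of 4.32 (2.84 to 6.91) that ran from 2.16 to 30.7 over the alternatives and stayed above 1 in each. Osteoclast-like macrophages had 459 CPM (445.1 to 472.8), with a UMI in 95.3% of cells, and held 64.2% of the 6617 CFA UMIs. In the PBS library, which had only 86 UMIs of the gene, neutrophil-like cells held 62.8% (51.7 to 73.0).

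The share of *Il1rn* among the UMIs of *Il1rn*, *Il1b* and *Il1a* together was taken as a measure of antagonist against agonist RNA, to be compared between classes. It does not give a ratio of proteins, since transcripts of each gene may be captured with their own efficiency. In the CFA library the share was 6.69% (6.01 to 7.42) in mature and 6.06% (5.38 to 6.79) in immature neutrophil-like cells, 12.7% (12.1 to 13.4) in macrophage-like cells and 27.0% (26.3 to 27.7) in osteoclast-like macrophages. Progenitor-like cells had the lowest share, at 3.24% (2.65 to 3.93). These intervals overlapped only between both kinds of neutrophil-like cells. Mature neutrophil-like cells had 14.6% (10.2 to 19.9) in the PBS library, over 5 cells, and macrophage-like cells had 6.61% (4.19 to 9.83), over 20 cells. A single PBS macrophage-like cell held 127 of the 310 UMIs of *Il1b* in its class, and the summed neutrophil markers of macrophage-like cells were at 19740 CPM in PBS and 5305 CPM in CFA, so no direction is read from either class with so few PBS cells. The intervals overlapped in immature neutrophil-like cells, at 7.38% (4.68 to 10.96) in PBS. Both ligands and the antagonist were often read in the same cells. In CFA osteoclast-like macrophages 82.7% of cells held UMIs of both *Il1b* and *Il1rn* and 70.4% those of both *Il1b* and *Il1a*. In CFA macrophage-like cells these shares were 63.7% and 31.5%, and in mature neutrophil-like cells 64.0% and 32%. Median depths were 31189, 12443 and 2662 UMIs a cell in these classes, in the order named. The shares of cells with both were not thinned, so the classes are not ranked by them.

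**Figure D3:**
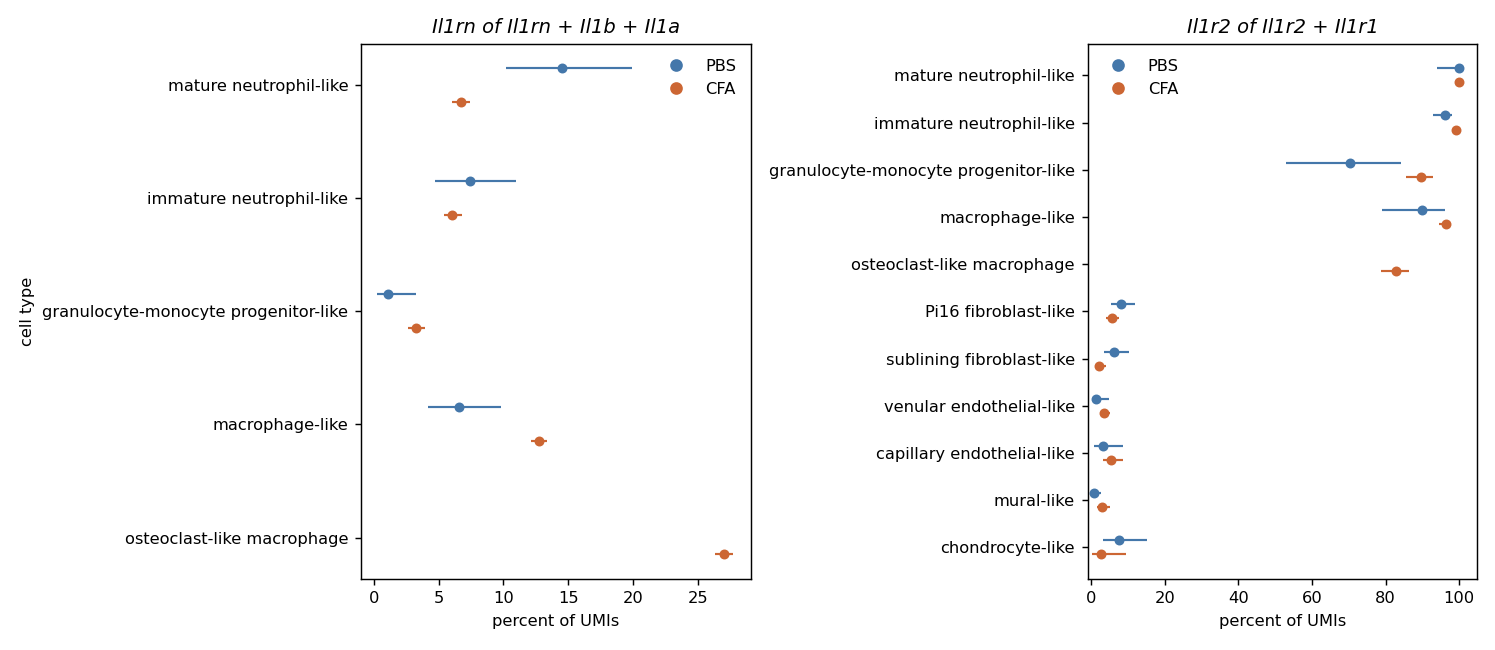
Left, the percent of *Il1rn* among the UMIs of *Il1rn*, *Il1b* and *Il1a* in the myeloid classes. Right, the percent of the decoy *Il1r2* among the UMIs of *Il1r2* and *Il1r1*. Points are single libraries (PBS blue, CFA orange) and bars are exact 95% intervals. The antagonist share was highest in osteoclast-like macrophages, at 27.0%, and the decoy share was above 70% in each myeloid class and under 9% in each stromal and vessel class shown.

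Since *Il1a*, *Il1b* and *Il1rn* were all read in the CFA myeloid classes, the sequences before their transcription starts are shown for reference. Each run is the 150 bases that end just before a start site, 5′ to 3′ on the strand of the gene, from the RefSeq annotation of GRCm38.p6. Capitals mark matches to TGANTCA, the AP-1 motif, or to GGG, any 5 bases and CC, an NF-κB motif, sought on both strands. Of 32851 such windows over all genes 4.24% held the first motif and 35.4% the second, so a match is frequent and is not a site.
*Il1a*, chr2:129309973-129310122, minus strand: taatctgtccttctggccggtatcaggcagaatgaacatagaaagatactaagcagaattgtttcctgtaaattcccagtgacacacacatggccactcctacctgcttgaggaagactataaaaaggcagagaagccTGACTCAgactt
*Il1b*, chr2:129371140-129371289, minus strand: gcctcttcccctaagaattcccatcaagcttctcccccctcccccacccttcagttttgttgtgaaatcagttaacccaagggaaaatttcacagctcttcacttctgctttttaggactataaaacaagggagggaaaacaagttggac
*Il1rn*, start 1, chr2:24336710-24336859, plus strand: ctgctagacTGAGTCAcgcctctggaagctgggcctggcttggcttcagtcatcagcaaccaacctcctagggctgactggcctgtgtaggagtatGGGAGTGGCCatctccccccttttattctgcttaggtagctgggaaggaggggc
*Il1rn*, start 3, chr2:24345221-24345370, plus strand: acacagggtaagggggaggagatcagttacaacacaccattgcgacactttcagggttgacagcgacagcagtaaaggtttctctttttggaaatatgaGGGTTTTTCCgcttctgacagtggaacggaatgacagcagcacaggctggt
The window of *Il1a* held an AP-1 match at base -12 from the start, that of *Il1b* held no match to either motif in these letters, and that of start 2 of *Il1rn*, not shown, held none. The counts do not tell the starts of *Il1rn* apart. In the GENCODE annotation of GRCm38, *Il1a* lies at chr2:129299610-129309972 and *Il1b* at chr2:129364570-129371139, both on the minus strand, and *Il1rn* at chr2:24336853-24351494 on the plus strand. *Il1a* shares bases with the antisense gene *Gm14023* and *Il1b* with *Il1bos*, as *Il1r2* does with *Gm16894*, *Il1rap* with *Gm20319*, *Il18* with *Bco2* and *Tex12*, and *Il18bp* with *Numa1* over 80 bases. Whether the counting used the strand is not given in the sources used here, so reads of such neighbours may not be told apart.

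Outside the myeloid classes, *Il1b* was low in CFA but above its PBS level in each of the 9 classes compared. Endothelial-like cells had 0.985 CPM (0.361 to 2.14) in the PBS and 30.9 CPM (27.0 to 35.2) in the CFA library, fibroblast-like cells 0.377 CPM (0.0457 to 1.36) and 36.5 CPM (31.6 to 42.0), and Schwann-like cells 3.25 CPM (1.05 to 7.58) and 27.4 CPM (20.3 to 36.1). B cell-like cells had 0.978 CPM (1 UMI) and 66.6 CPM (49.8 to 87.4), and the ratio of 68.2 turned to 0.347 when clustering used log-normalized counts without integration. These levels came from few cells. In CFA chondrocyte-like cells, at 131 CPM (114.9 to 148.1), 1 of 84 cells held 146 of 246 UMIs, and the ratio of 46.7 ran from 2.57, without the 3 cells with the most UMIs, to 192, without the cells with the highest doublet scores. In CFA fibroblast-like cells 3 cells held 123 of 197 UMIs, and without them the ratio fell from 96.8 to 24.6. After thinning to 1000 UMIs, 2.72% of endothelial-like, 1.98% of fibroblast-like and 2.75% of Schwann-like CFA cells held a UMI of *Il1b*, against 63.4% of neutrophil-like and 54.1% of macrophage-like cells.

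Free RNA of lysed cells can put UMIs into other cells, so *Il1b* was set beside *S100a8* and *S100a9*, a pair of very abundant neutrophil genes, in each class. For each 100 UMIs of that pair, *Il1b* had 50.1 UMIs in CFA mature and 0.921 in CFA immature neutrophil-like cells, 49.2 in macrophage-like cells and 41.2 in osteoclast-like macrophages. Among other CFA classes it had 0.555 (0.352 to 0.834) in tenocyte-like and 1.32 (0.932 to 1.82) in mural-like cells, near the value of immature neutrophil-like cells. It had 11.51 (9.97 to 13.2) in endothelial-like, 10.5 (7.66 to 14.0) in Schwann-like, 32.8 (27.8 to 38.6) in fibroblast-like and 170.8 (138.5 to 211.3) in chondrocyte-like cells. The myeloid classes themselves ran from 0.921 to 50.1, so a mixture of their RNA could give any value between, and the values in that range do not tell free RNA from expression. All 7 neutrophil markers were above 0 in 7 of the 9 CFA classes, with 6 of 7 in osteoblast or osteocyte-like and 5 of 7 in B cell-like cells. Their summed level was 119 and 295 CPM in PBS and CFA endothelial-like cells and 57.7 and 3047 CPM in tenocyte-like cells, and 424 and 123 CPM in fibroblast-like cells. The part of free RNA and of cells caught together in the low levels outside the myeloid classes was not tested. *Il1rn* had 0 UMIs in PBS endothelial-, fibroblast-, Schwann- and chondrocyte-like cells and 34, 21, 21 and 20 UMIs in the CFA cells of these classes, at levels of 3.89 to 11.49 CPM, and the same applies to it.

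**Figure D4:**
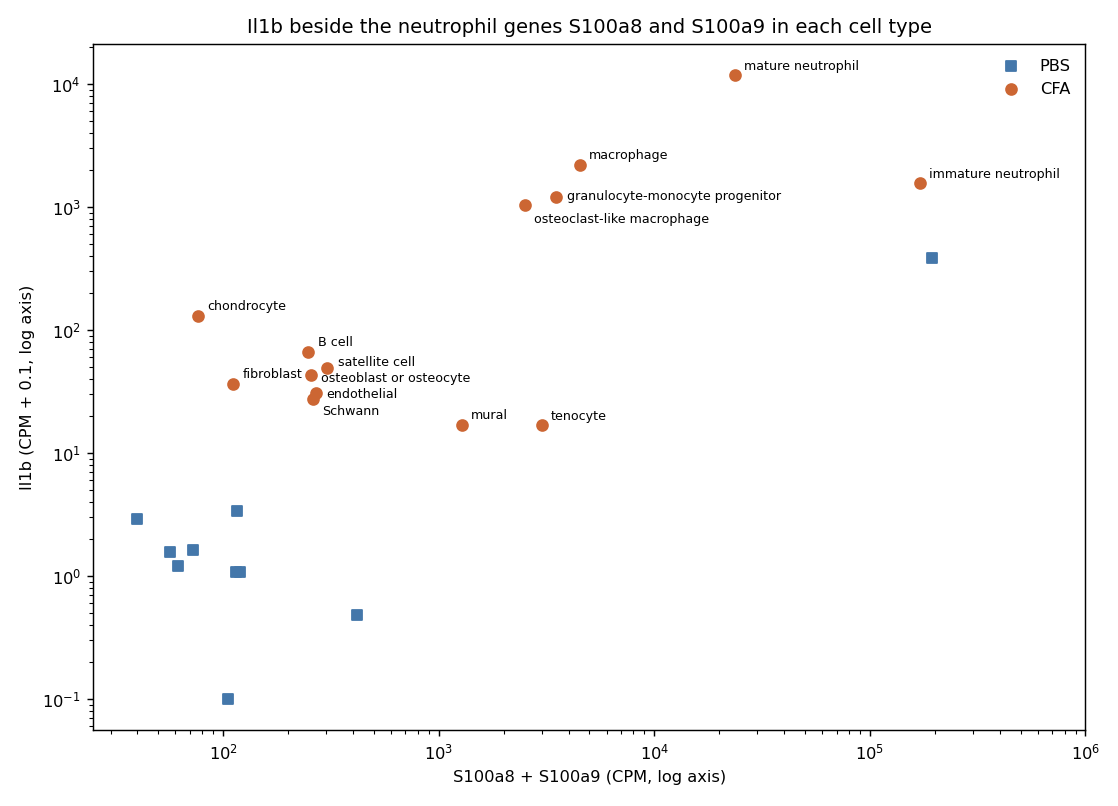
*Il1b* against the summed level of *S100a8* and *S100a9* in each named class with at least 50 cells in a library, with both kinds of neutrophil-like cells apart and no other subtypes, both in CPM on log axes, PBS as blue squares and CFA as orange circles, with labels on the CFA points. The CFA myeloid classes sit between 1035 and 11830 CPM of *Il1b* and the other CFA classes plotted between 16.7 and 131 CPM, while the PBS satellite cell-like cells held no UMI and are the lowest of the points plotted.

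*Il1r1*, the receptor that binds both agonists, belonged to stroma and vessels and was higher in CFA within most of them. Sublining fibroblast-like cells were named from *Col15a1*, *Smoc2* and *Mfap4*, while *Thy1*, *Col1a1* and *Cxcl12* of the same list did not pass the marker rule. The paper marked its sublining fibroblasts by *Thy1*, *Col1a1* and *Col1a2*, so the classes need not be the same. The cells had 118 CPM (102.7 to 134.2) over 210 PBS cells and 342 CPM (310.1 to 376.8) over 140 CFA cells, a ratio of 2.91 (2.47 to 3.44). *Pi16* fibroblast-like cells, a class with genes of adventitial progenitors, had 82.2 CPM (72.8 to 92.4) and 166 CPM (154.3 to 179.3), a ratio of 2.03 (1.76 to 2.34). Both of their clusters moved the same way, from 67.5 to 166 CPM and from 97.3 to 169.5 CPM. The sublining ratio fell to 1.91 when each cell was classed by its own markers, and the *Pi16* ratio fell under 2 in 3 alternatives, the lowest being 1.92. Fibroblast-like cells together had 94.9 and 206 CPM, a ratio of 2.17 (1.95 to 2.42) that ran from 1.92 to 2.55 over the alternatives. The share of cells with a UMI was 47.9% and 64.9%, and after thinning 8.602% and 19.8%, against 1.95% and 4.24%, or 0.333% and 1.10% after thinning, in Schwann-like cells. Median depths were 11315.5 and 12922.5 UMIs in fibroblast-like and 3832 and 3433 UMIs in Schwann-like cells.

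In vessels the level of *Il1r1* followed the kind of endothelial-like cell. Venular cells, with *Plvap*, *Selp* and *Vwf*, had 91.5 CPM (77.3 to 107.7) over 113 PBS cells and 241 CPM (223.3 to 259.8) over 191 CFA cells, a ratio of 2.63 (2.20 to 3.17). Capillary cells, with *Car4* and *Gpihbp1*, had 27.4 CPM (22.2 to 33.5) and 94.7 CPM (84.4 to 105.8), a ratio of 3.45 (2.74 to 4.39), and each of their 4 clusters was higher in CFA. Arterial cells, with *Gja5* and *Sema3g*, had 29.1 CPM (19.6 to 41.5) and 38.4 CPM (27.8 to 51.7), and the interval of their ratio of 1.32 (0.809 to 2.18) held 1 and lay below that of the capillary cells. The venular ratio dropped to 1.84 with log-normalized counts without integration and to 1.66 as a mean over cells. All endothelial-like cells together went from 44.5 to 143 CPM, a ratio of 3.22 (2.81 to 3.69) that was 2.12 as a mean over cells. They held 19.7% (17.6 to 21.9) of the PBS and 33.0% (31.4 to 34.7) of the CFA UMIs of *Il1r1*, while fibroblast-like cells held 36.5% and 35.5%.

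Mural-like cells, the smooth muscle cells and pericytes of vessels, had the highest PBS level among the broad classes, 132 CPM (116.7 to 149.5), and 174 CPM (157.3 to 192.2) in CFA, a ratio of 1.32 (1.12 to 1.55). Within them the cluster led by *Myh11* and *Acta2* had 74.8 and 95.4 CPM, and that led by *Actg2* and *Rgs5*, with the pericyte genes *Abcc9* and *Higd1b*, had 217 and 373 CPM. Tenocyte-like cells had 31.1 and 54.5 CPM, a ratio of 1.75 (1.24 to 2.49). In the skeletal classes the CFA level was not above the PBS level. Chondrocyte-like cells had 47.5 CPM (38.0 to 58.8) and 38.8 CPM (30.4 to 48.8), and 1 of their clusters, with 105.8 CPM over 29 cells, occurred in PBS only. Osteoblast or osteocyte-like cells had 89.3 CPM (70.9 to 111.0) and 56.9 CPM (46.3 to 69.2), a ratio of 0.637 (0.471 to 0.865). The mix of their clusters differed, since one supplied 36 PBS and 86 CFA cells, at 39.1 CPM (21.9 to 64.5) and 45.1 CPM (33.9 to 58.8), and the other 35 and 28 cells, at 126 CPM (97.5 to 160.5) and 82.2 CPM (60.2 to 109.7), with overlapping intervals within each. Neutrophil-like cells had 14.7 CPM (11 UMIs) and 5.62 CPM (17 UMIs), a ratio of 0.382 (0.169 to 0.902) that became 1.006 without the 3 cells with the most UMIs.

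**Figure D5:**
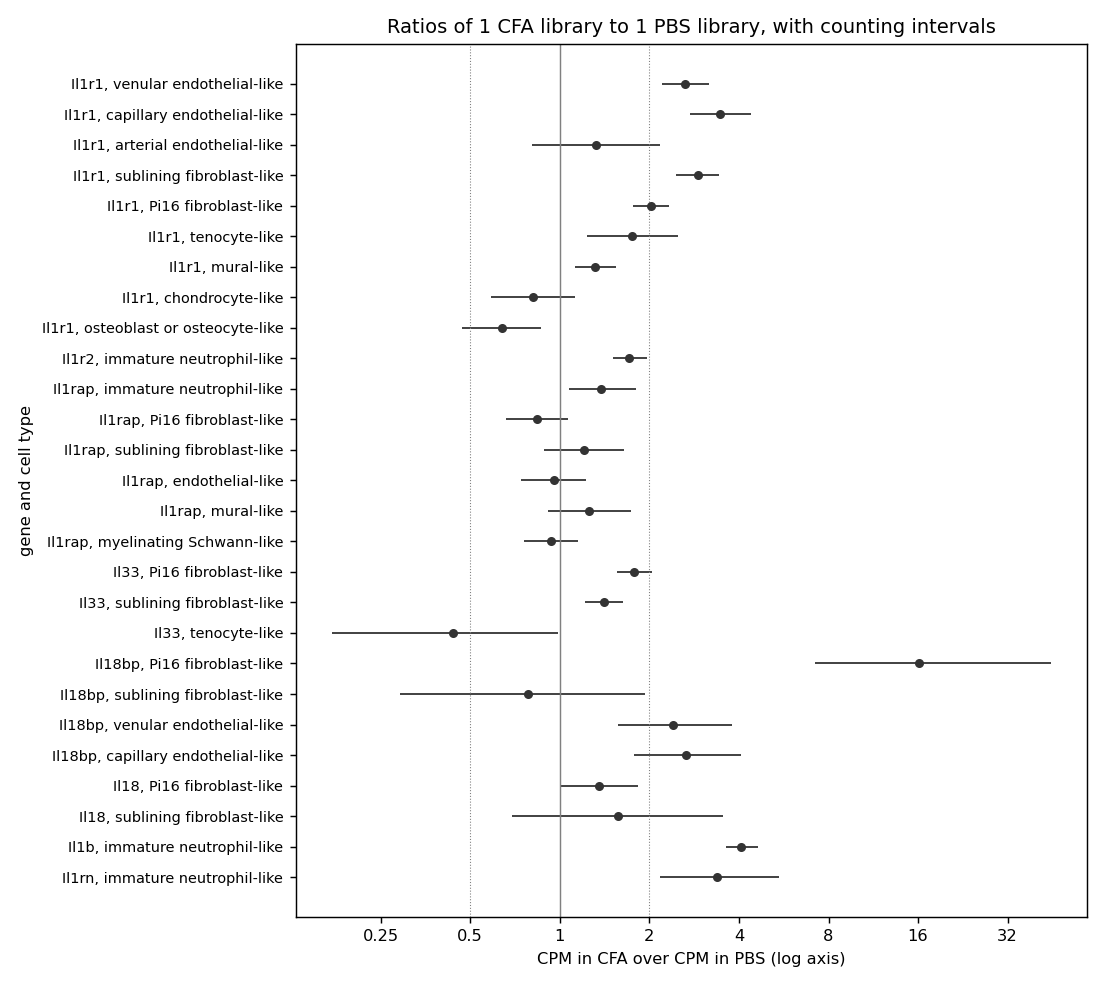
Ratio of the CFA to the PBS level (CPM over CPM, log axis) of receptors, ligands and binding proteins in the cell types that hold them, with exact 95% counting intervals, a solid line at 1 and dotted lines at 0.5 and 2. *Il1r1* was past 2 in venular, capillary, sublining and *Pi16* rows and below 1 in chondrocyte- and osteoblast-like rows, *Il1rap* lay between 0.839 and 1.38 in its rows, and *Il18bp* in *Pi16* fibroblast-like cells had the highest ratio shown, 16.2.

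*Il1r2*, the decoy, was highest in the myeloid classes, in which *Il1r1* was low. Mature neutrophil-like cells had 2099 CPM (1602 to 2702) in PBS and 2145 CPM (2000 to 2299) in CFA, immature ones had 372 CPM (328.6 to 419.2) and 637 CPM (607.3 to 668.5), and neutrophil-like cells held 64.8% and 62.2% of its UMIs. The ratio in immature cells was 1.71 (1.51 to 1.96), and that in all neutrophil-like cells was 1.88 (1.68 to 2.12), with 2.42 without the 3 cells with the most UMIs. Macrophage-like cells had 191 CPM (143.4 to 250.3) and 142 CPM (130.8 to 153.4), with ratios on both sides of 1 over the alternatives, and progenitor-like cells had 35.0 CPM (22.9 to 51.3) and 111 CPM (97.8 to 124.9). Of the UMIs of *Il1r2* and *Il1r1* together, *Il1r2* made up 96.8% (94.2 to 98.4) in PBS and 99.3% (98.9 to 99.6) in CFA neutrophil-like cells, and 89.8% and 96.4% in macrophage-like cells. In osteoclast-like macrophages it made up 82.8% (78.6 to 86.4). In sublining fibroblast-like cells the share was 6.30% (3.57 to 10.2) and 2.12% (0.975 to 3.99), in *Pi16* fibroblast-like cells 8.20% and 5.56%, and in endothelial-like cells 1.81% (0.591 to 4.18) and 3.99% (2.90 to 5.34). Single cells could hold both, as 15 of 25 PBS and 25 of 34 CFA fibroblast-like cells with *Il1r2* also held *Il1r1*, and all 10 CFA neutrophil-like cells with *Il1r1* held *Il1r2*. By these shares of UMIs the myeloid and stromal classes named were apart in both libraries, with no overlap of their intervals, and the PBS and CFA intervals overlapped in the stromal and endothelial-like classes named.

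*Il1rap*, the accessory chain that IL-1R1 and ST2 share, had UMIs in 21.7% of the cells in PBS against 26.6% in CFA, across glia, myeloid cells and stroma. In Schwann-like cells, the glia of peripheral nerve, it had 207 CPM (184.5 to 230.6) and 145 CPM (128.1 to 163.5), a ratio of 0.702 (0.594 to 0.828), and they held 29.0% of its PBS UMIs. Within them the myelinating cells had 153 CPM (131.9 to 175.9) and 143 CPM (122.3 to 165.9). The nonmyelinating glia had 447 CPM (372.4 to 532.2) over 46 PBS cells and 149 CPM (120.3 to 182.5) over 53 CFA cells. The mix of clusters differed there, because a cluster led by *Fabp7* and *Ncam2* with 82.3 and 37.2 CPM supplied 3 PBS and 16 CFA cells. In the other cluster alone *Il1rap* had 501 CPM (416.5 to 598.0) and 292 CPM (231.2 to 362.9), whose intervals did not overlap. Neutrophil-like cells had 114 CPM (90.9 to 140.8) and 213 CPM (196.9 to 230.2), a ratio of 1.87 (1.49 to 2.38), and held 7.75% of the PBS and 26.2% of the CFA UMIs. Macrophage-like cells had 116 and 55.5 CPM, a ratio of 0.480 that turned above 1 in 3 alternatives, up to 1.65. Mature neutrophil-like cells had 728 CPM (643.7 to 819.1) in CFA and immature ones 140 CPM (126.3 to 155.2).

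In the 3 classes with the most UMIs of *Il1r1* no difference of the accessory chain beyond counting error was seen. Fibroblast-like cells had 45.1 CPM (39.5 to 51.2) and 40.8 CPM (35.6 to 46.6) of *Il1rap*, endothelial-like cells 20.03 CPM (16.6 to 23.9) and 19.1 CPM (16.1 to 22.6), and mural-like cells 35.4 CPM (27.5 to 44.8) and 44.4 CPM (36.1 to 54.0), all with overlapping intervals. Other classes with *Il1r1* differed from these. Satellite cell-like cells, the stem cells of muscle, had 18.4 CPM (7 UMIs) and 47.7 CPM (30 UMIs) of *Il1rap*, a ratio of 2.59 (1.11 to 6.99) that ran from 1.95 to 2.85 over the alternatives. In the osteoblast or osteocyte-like cluster with more *Il1r1*, *Il1rap* had 13.4 CPM (5.38 to 27.6) and 46.5 CPM (30.4 to 68.1), and in the other cluster 46.9 CPM (27.8 to 74.1) and 40.9 CPM (30.3 to 54.1). UMIs of both receptor chains were read in 15.8% of PBS and 22.4% of CFA fibroblast-like cells. Of the fibroblast-like cells with *Il1r1*, 33.0% (26.9 to 39.6) in PBS and 34.5% (28.4 to 40.9) in CFA also held *Il1rap*, close to the 30.6% and 32.3% of all fibroblast-like cells. The same share in venular cells was 30.4% (17.7 to 45.8) and 15.4% (9.56 to 23.1), beside 20.4% and 15.7% of all venular cells. Schwann-like cells, with *Il1rap* in 41.6% and 38.7% of cells, held both chains in 1.30% and 1.86%. A gene without a UMI in a cell at these depths may still be expressed there.

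IL-18 and its inhibitor had different main sources in PBS, while in CFA macrophage-like cells held the most UMIs of both. *Il18* was held by fibroblast-like cells in PBS, with 48.6% (41.2 to 56.1) of 183 UMIs, and in CFA by macrophage-like cells, with 25.8% (22.5 to 29.3) of 662 UMIs, and fibroblast-like cells, with 21.0%. Its level in macrophage-like cells was 43.3 CPM (22.4 to 75.7) in PBS and 39.2 CPM (33.6 to 45.6) in CFA. In fibroblast-like cells it was 16.8 CPM (13.5 to 20.6) and 25.8 CPM (21.7 to 30.4), a ratio of 1.53 (1.17 to 2.03). Tenocyte-like cells had 6.41 and 16.7 CPM, a ratio of 2.61 (1.27 to 5.604), and neutrophil-like cells 2.68 CPM, from 2 UMIs, and 18.2 CPM, a ratio of 6.79 (1.79 to 57.5). *Il18bp* was an endothelial gene in PBS, where these cells held 43.6% (35.8 to 51.5) of 163 UMIs, and their level went from 11.7 CPM (9.10 to 14.7) to 31.4 CPM (27.5 to 35.8) in CFA, a ratio of 2.70 (2.06 to 3.57). Macrophage-like cells had 21.7 CPM (7.95 to 47.2) and 113 CPM (103.1 to 123.3), a ratio of 5.21 (2.38 to 14.3), and held 33.9% of 1450 CFA UMIs. Neutrophil-like cells had 4.02 CPM, from 3 UMIs, and 45.0 CPM (37.8 to 53.2), a ratio of 11.2 (3.75 to 55.0). Tenocyte-like cells had 5.43 and 13.1 CPM of *Il18bp*, a ratio of 2.41 (1.08 to 5.65) that was 1.48 in the lowest of the alternatives, beside 2.61 for *Il18*.

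Of the *Pi16* and sublining kinds of fibroblast-like cells, only *Pi16* cells had a higher level of *Il18bp* in CFA. They had 1.76 CPM (0.646 to 3.83) in PBS and 28.5 CPM (23.6 to 34.1) in CFA, a ratio of 16.2 (7.21 to 44.9). The sublining cells had 8.44 CPM (4.83 to 13.7) and 6.60 CPM (2.85 to 13), a ratio of 0.781 (0.290 to 1.94) whose interval lay below that of *Pi16* cells. Within *Pi16* cells the cluster that carries *Pi16* itself had 1.73 and 35.3 CPM, and the cluster led by *Angptl1* and *Cilp*, in which *Pi16* was not among the markers detected, had 1.79 CPM (0.369 to 5.24) and 4.32 CPM (1.18 to 11.1), with overlapping intervals. The *Pi16* ratio ran from 7.58 to 27.1 over the alternatives. Lining fibroblast-like cells, a class apart with 31 PBS and 7 CFA cells, held 1 and 9 UMIs of *Il18bp*. Their levels were 1.78 CPM (0.0450 to 9.91) and 53.05 CPM (24.3 to 100.7). Of the UMIs of *Il18bp* and *Il18* together, *Il18bp* made up 7.41% (2.77 to 15.4) in PBS and 48.8% (42.3 to 55.2) in CFA *Pi16* fibroblast-like cells. The share was 74.2% (70.7 to 77.5) in CFA macrophage-like cells, and 100% and 98.7% in PBS and CFA endothelial-like cells, where *Il18* itself was nearly unread.

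*Il33*, the nuclear alarmin, was a fibroblast gene in both libraries, with 80.0% (77.2 to 82.6) of the PBS and 93.3% (91.7 to 94.7) of the CFA UMIs. Sublining fibroblast-like cells had 199.5 CPM (179.9 to 220.6) and 281 CPM (252.1 to 312.7), a ratio of 1.41 (1.21 to 1.64). *Pi16* fibroblast-like cells had 93.3 CPM (83.4 to 104.2) and 166 CPM (153.6 to 178.5), a ratio of 1.78 (1.55 to 2.03). Within the latter the cluster with *Pi16* had 130 and 191 CPM, and the cluster led by *Angptl1* had 55.5 CPM (44.8 to 68.0) and 76.6 CPM (59.9 to 96.7), with overlapping intervals. The mix of these clusters differed, since the first supplied 129 PBS and 163 CFA cells and the second 129 and 59 cells. Fibroblast-like cells together had 131 and 192 CPM, a ratio of 1.46 (1.32 to 1.61) that stayed between 1.32 and 1.74 over the alternatives. The lower level over the whole CFA library thus stood beside a higher level in its main source, whose share of cells was lower in CFA. Perineurial-like cells, the sheath of nerve fascicles, had 200 CPM (114.1 to 324.3) over 13 PBS cells and 493 CPM (300.9 to 760.9) over 8 CFA cells, also with overlapping intervals. Outside these classes *Il33* was low. Tenocyte-like cells had 13.3 CPM (8.78 to 19.4) and 5.81 CPM (2.51 to 11.46), a ratio of 0.437 (0.171 to 0.988) that became 1.24 without the hemoglobin limit, and endothelial-like cells had 2.63 CPM (1.502 to 4.27) and 1.11 CPM (0.478 to 2.18). UMIs of *Il33* and *Il1r1* were read together in 20.5% of PBS and 35.4% of CFA fibroblast-like cells. Of the fibroblast-like cells with *Il33*, 55.2% (47.5 to 62.7) in PBS and 68.1% (60.9 to 74.7) in CFA also held *Il1r1*. These intervals held the shares of all fibroblast-like cells with *Il1r1*, 47.9% and 64.9%.

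*Il1rl1*, which encodes ST2, the receptor of IL-33, was read in 40 PBS and 40 CFA cells. Mast cell or basophil-like cells had 148 CPM (59.6 to 305.4), with a UMI in 4 of 7 cells or 57.1%, in PBS and 131 CPM (78.8 to 204.3), in 5 of 12 cells or 41.7%, in CFA. Fibroblast-like cells had 4.15 CPM (2.6 to 6.28) and 16.9 CPM (13.6 to 20.7), but from 3 and 7 cells, and in CFA 3 cells held 79 of 91 UMIs. Of these 3 and 7 cells, 0 and 1 also held *Il1rap*. A cluster led by *Car1* and *Car2* that mixed erythroid genes with genes of airway glands, and was left unnamed, held 54.8% of the PBS and 12.8% of the CFA UMIs. Its level was 19.2 CPM (14.6 to 24.9) and 23.3 CPM (14.4 to 35.6), with overlapping intervals. Fibroblast-like cells held 21.2% (13.8 to 30.3) of the PBS and 55.5% (47.5 to 63.2) of the CFA UMIs of *Il1rl1*, so most of its CFA RNA came from the class that held *Il33*, but from 7 of 362 cells.

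Ratios were set against those of all genes in 10 classes with at least 50 cells in each library, for genes with at least 20 UMIs over both libraries of the class. Of 103069 such pairs of a gene and a class 6.21% were at least 2-fold higher in CFA and 6.38% at least 2-fold lower. Of 54 such pairs of the 10 genes 29 were at least 2-fold higher and 3 at least 2-fold lower. A pair could reach 20 UMIs through the CFA library alone, and its call was then fixed by that rule. *Il1rn* did so in endothelial-, fibroblast-, Schwann- and chondrocyte-like cells, with 0 PBS UMIs in each. *Il1b* did so in satellite cell-like cells, with 0 and 31 UMIs. The count of 29 is therefore given as a description only. *Il1a*, *Il1b*, *Il1rn* and *Il1r2* outside the myeloid classes gave 14 of the 29, at levels whose source was not tested as described above. The other 6 genes outside the myeloid classes gave 10 higher and 2 lower of 31 pairs, with a median log2 ratio of 0.62. In endothelial-like cells 5 of 7 genes were higher and 1 was lower, beside 4.90% and 6.53% of all genes, and in venular cells 4 of 5 were higher and 0 lower, beside 4.75% and 7.36%. In fibroblast-like cells 5 of 9 were higher and 0 lower, beside 7.36% and 5.50%. In neutrophil-like cells 5 of 8 were higher and 1 lower, beside 9.08% and 13.8%.

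The further genes of the pathway were counted in lists taken from textbook knowledge, but set with earlier results of these data known. The shares of all genes in the same classes are those given above. In fibroblast-like cells, genes of processing and release gave 4 higher and 0 lower of 11 tested, among them *Casp4*, an inflammatory caspase, with 21.7 and 116 CPM, a ratio of 5.35 (4.38 to 6.59), *Casp1* with 1.70 and 11.9 CPM, and *Nlrp3*, an inflammasome sensor, with 2 and 37 UMIs. Of 16 receptor-proximal genes 1 was higher, *Irak2*, with 8.86 and 19.5 CPM, a ratio of 2.20 (1.54 to 3.17), and 0 were lower, while the adaptor *Myd88* had 31.5 and 23.4 CPM. Of 16 feedback and target genes 8 were higher and 0 lower. They were *Saa3*, with 3 and 5029 UMIs, the collagenase *Mmp13*, with 1.51 and 243 CPM, the chemokines *Cxcl2*, *Cxcl5* and *Ccl2*, and *Mmp3*, *Lcn2* and *Tnfaip3*. Among them *Cxcl5* had 12.3 and 204 CPM, a ratio of 16.6 (12.9 to 21.7), and *Mmp3* 48.1 and 201 CPM, a ratio of 4.17 (3.64 to 4.80). *Cxcl2*, *Saa3* and *Lcn2* were at least 2-fold higher in tenocyte-, mural-, Schwann- and osteoblast or osteocyte-like cells as well. They are abundant in the CFA myeloid classes, with *Lcn2* at 9220 CPM in neutrophil-like and *Saa3* at 1192 CPM in macrophage-like cells, beside 117 and 932 CPM in fibroblast-like cells, and the part of free RNA in these and in *Nlrp3* was not tested. *Cxcl5*, *Mmp3* and *Mmp13* had 0.331, 0 and 1.65 CPM in CFA neutrophil-like and 0.688, 0.459 and 7.11 CPM in CFA macrophage-like cells. *Nfkbia*, an early feedback inhibitor of NF-κB, had 388 and 409 CPM, a ratio of 1.06 (0.994 to 1.12).

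Endothelial-like cells gave a mixed count in the same lists. A link between these genes and the level of *Il1r1* was not tested. Of 14 feedback and target genes 4 were higher and 3 lower. *Ccl2*, a monocyte chemokine, had 22.3 and 1.52 CPM, a ratio of 0.0682 (0.0333 to 0.126), *Cxcl1*, a neutrophil chemokine, 70.8 and 17.2 CPM, a ratio of 0.243 (0.197 to 0.297), and *Steap4* 14.6 and 3.46 CPM, a ratio of 0.237 (0.146 to 0.373). In venular cells *Ccl2* had 82.8 and 1.77 CPM, *Cxcl1* 106 and 18.4 CPM and *Steap4* 44.5 and 8.14 CPM, and 1 of 12 genes was higher and 3 lower. Those higher in all endothelial-like cells were *Cxcl2*, with 15.8 and 50.3 CPM, *Saa3*, *Ptgs2*, with 4 and 29 UMIs, and *Csf3*, with 3 and 20 UMIs. Among them *Cxcl2* and *Saa3* are also abundant in the CFA myeloid classes, where *Cxcl2* had 3833 CPM in neutrophil-like and 3664 CPM in macrophage-like cells. The part of free RNA in the UMIs of the genes called higher was not tested. Of 12 genes of processing and release 4 were higher, among them *Aim2* and *Nek7*, a partner of *Nlrp3*, with 145 and 295 CPM, a ratio of 2.03 (1.88 to 2.20). *Sigirr*, an inhibitory receptor of the family, had 38.9 and 27.1 CPM, a ratio of 0.698 (0.574 to 0.846).

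In neutrophil-like cells 6 of 15 genes of processing and release were higher and 0 lower, with *Nlrp3* at 89.7 and 431.5 CPM, a ratio of 4.81 (3.76 to 6.24), and *Casp4* at 71.0 and 145 CPM. Of 15 receptor-proximal genes 2 were higher, *Irak2*, with 68.3 and 295 CPM, and *Nfkb1*, with 131 and 290.5 CPM. Of 13 feedback and target genes 9 were higher and 0 lower, with *Cxcl2* at 627 and 3833 CPM, a ratio of 6.12 (5.58 to 6.72), *Nfkbia* at 394 and 1436 CPM, a ratio of 3.65 (3.24 to 4.12), and *Ptgs2* at 30.8 and 196 CPM. The ligand *Il1f9*, which encodes IL-36γ, had 83.0 and 300 CPM, a ratio of 3.61 (2.79 to 4.75), and the IL-18 receptor chain *Il18rap* had 77.7 and 175 CPM. The larger share of mature cells in CFA stands beside these ratios as beside that of *Il1b*.

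Each gene was also set beside all others over 23 sums of a named class in a library with at least 50 cells. This was done among 14710 genes by Pearson's r of log2(CPM + 10), as a description. *Il1b* was most like *Cxcl2* (r = 0.979), *Il1a* like *Clec4n* (0.982), *Il1rn* like *Clec4d* (0.974) and *Il1r2* like *Hcar2* (0.983), all genes of myeloid cells. *Il33* was most like *Inmt* (0.957) and *Il1rl1* like *Krt25* (0.951). The unnamed cluster led by *Car1* and *Car2*, at 19.2 and 23.3 CPM of *Il1rl1* in PBS and CFA, was not among the sums. Of the sums used, the highest of *Il1rl1* was that of CFA fibroblast-like cells, at 16.9 CPM, where 3 cells held 79 of 91 UMIs. The next was 4.15 CPM, so its r rests largely on few cells. *Il18bp* was most like *Csf2rb2* (0.880), *Il1r1* like *Ccdc149* (0.886), *Il1rap* like *Svip* (0.875) and *Il18* like *Slc9a9* (0.786). The sums share 2 libraries, their depth and their free RNA.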

How the data were processed

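Single-cell RNA was measured in 1 PBS and 1 CFA library. The authors deposited UMI counts per gene and barcode, made with Cell Ranger 7.0.1 on GRCm38 (mm10) per the submitters' processing notes and methods. The annotation release, the use of introns and the use of strand are not given in the sources used here, so UMIs of different genes do not measure their relative expression. Shares of UMIs between genes, and *Il1b* beside *S100a8* and *S100a9*, are given to compare classes and libraries. The methods name collagenase P, dispase II and a v3.1 kit, and the labels collagenase I, dispase and a v2 kit. Barcodes with at least 500 genes, at most 10% mitochondrial and at most 1% hemoglobin UMIs were kept. Counts were normalized and integrated with Seurat 5.3.0 and sctransform 0.4.2 (3000 genes, 200 components) and clustered at resolution 1.5. A cluster was named when at least 3 markers of a class were each read in 25% of its cells and raised 2-fold with 10 CPM added. The class of lining fibroblasts and the rule that left a cluster of airway gland genes unnamed were chosen after the clusters were seen, as were the alternatives that leave out 3 cells or use immature neutrophil-like cells alone. The 10 genes, the lists and the markers were chosen with earlier results of these data known. The genes named are the 10 members, markers, pathway genes past 2-fold (at most 10 per class, by size of ratio) and the genes most like each member. *Myd88*, *Nfkbia* in fibroblast-like cells and *Sigirr* fall outside that rule and were chosen after their values were seen.

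UMIs were summed per class and library and divided by the class total to give CPM. Ratios were read for classes with at least 50 cells in each library and at least 20 UMIs of the gene over both, and called at 2-fold. Other classes are given as values where named, and macrophage-like cells also with ratios. With 1 library per condition no test across samples was possible. A count of 0 was given a floor of 3 counts, for each library. Shares of cells were also taken after thinning each cell to 1000 UMIs, which left out 55 PBS and 129 CFA cells. Doublets were not removed, since Scrublet (scanpy 1.11.5) marked only 21 PBS and 2 CFA cells by its automatic threshold, and an alternative left out the 5% of cells with the highest scores. Intervals came from scipy 1.17.1, and the scripts were tested on simulated data.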

Additional observations from a re-analysis of the deposited data

Results flagged for a closer look

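The ratio of CFA to PBS for *Il1r1* lay on opposite sides of 1 in fibroblast-like cells, at 2.171, and in neutrophil-like cells, at 0.3818. This difference between classes was not tested, since each condition has 1 library, and the neutrophil-like ratio rested on 11 PBS and 17 CFA UMIs and became 1.006 without the 3 cells with the most UMIs.

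Barcodes that failed the filters, 5004 of PBS and 1695 of CFA, were used in no comparison and held more of 9 genes in CFA, with intervals that did not overlap, 6 of them at least 2-fold. Among the 6 *Il1b* had 17.8 CPM in PBS and 158.5 CPM in CFA, *Il1a* 0.71 and 10.02 CPM, and *Il1rn* 3.88 and 28.51 CPM. *Il1r2* had 7.10 and 37.1 CPM, *Il18* 1.75 and 4.183 CPM, and *Il18bp* 2.67 and 8.806 CPM. *Il1r1* had 22.1 and 29.6 CPM, *Il1rap* 16.5 and 22.1 CPM, and *Il1rl1* 7.14 and 11.45 CPM, while *Il33* was lower in CFA, at 10.9 CPM in PBS and 4.73 CPM in CFA. These barcodes include cells with much hemoglobin RNA, few genes or many mitochondrial UMIs, and their part in the levels of the kept cells was not tested.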

How the results depend on the processing

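Each alternative changed 1 choice, except that clustering on log-normalized counts also left out integration and used fewer genes and components. Of the values, 955 lay within the counting interval of the value reported or, for counts of pairs, near the count. A further 147 lay outside, and 9 turned direction. Only ratios reported past 2-fold could count as turned, so others that crossed 1 are among the 955 or the 147. Examples are *Il1b* in macrophage-like cells, down to 0.743, and *Il18bp* in sublining fibroblast-like cells, from 0.525 to 2.52. Turned were *Il33* in tenocyte-like cells without the hemoglobin limit (1.24), *Il18* in Schwann-like cells as a mean over cells (0.625), *Il1r1* in neutrophil-like cells without the 3 cells with the most UMIs (1.006), and *Il1rap* in macrophage-like cells with log-normalized counts without integration (1.30), with each cell classed by its own markers (1.23) and without 3 cells (1.65). *Il1b* turned in B cell-like cells with log-normalized counts (0.347) and in early B cell-like cells with log-normalized counts (0.677) and at least 1000 genes per cell (0.473). The ratio of *Il1r1* was 2.12 in endothelial-like cells as a mean over cells, and 1.92 with own markers and 2.55 as a mean over cells in fibroblast-like cells. That of *Il33* in fibroblast-like cells was 1.63 with 1000 genes, 1.74 with log-normalized counts and 1.32 with own markers. *Il1b* in neutrophil-like cells had ratios of 5.13 without the hemoglobin limit, 4.12 as a mean over cells, 6.78 without 3 cells and 4.08 in immature cells alone, and gave no value with log-normalized counts or own markers. *Il1b* in macrophage-like cells had 1.71 with at most 20% mitochondrial UMIs, 1.26 at resolution 0.8, 0.743 with log-normalized counts, 1.71 with all genes kept in clustering, 3.09 with own markers, 1.16 without the highest Scrublet scores, 2.23 scaled by the median, 2.32 as a mean over cells and 3.95 without 3 cells. Of 29 pairs called higher, 18 were called with log-normalized counts and 16 with at least 50 UMIs. Pairs called lower numbered 3, and 5 without the hemoglobin limit, 1 each with 1000 genes, resolution 0.8, own markers and without the highest Scrublet scores, and 0 with at least 50 UMIs. The causes were not tested. No paired analysis was possible because each condition has 1 library. Depth limits *Il1a*, *Il1rn* and *Il1rl1* most, with 43, 86 and 104 PBS UMIs.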

Other observations

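A pair of clusters that could not be named held members of the family as well. The cluster led by *Siglech* and *Gzma* had 48.9 CPM of *Il1r1* over 45 PBS cells and 162 CPM over 89 CFA cells, and 192 and 285 CPM of *Il1b*. In PBS 97 of its 98 UMIs of *Il1b* came from 3 cells. The cluster led by *Car1* and *Car2* had 26.3 CPM of *Il33* in PBS, with 78 UMIs from 9 of 94 cells, and 2.22 CPM in CFA, with 2 UMIs from 1 of 71 cells.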
